A study of Mus musculus with 8 samples.

Results

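The heat shock chaperones are a set of 10 mouse genes, *Hspa1a*, *Hspa1b*, *Hspa8*, *Hsph1*, *Dnaja1*, *Dnajb1*, *Hsp90aa1*, *Hsp90ab1*, *Hspb1* and *Hspd1*. They were chosen by name, and all 10 had a row among the 50600 rows of the deposited RNA-seq table. RNA-seq was made from JUNTetON ESCs, a mouse embryonic stem cell line with a doxycycline-inducible transgene for JUN, a transcription factor of the AP-1 family. The question was how compounds that bind the bromodomains of chromatin remodelling (BAF) complexes change expression while JUN is being induced.

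All 4 groups were OG2 transgenic ESCs (which carry an Oct4-GFP reporter) of the genotype c-Jun_TetOn_mESC and a mixed 129SVJ, C57B6 and CBA background, at the same passage and without feeder cells. The medium held serum, PD0325901 (a MEK inhibitor), Chir99021 (a GSK3 inhibitor) and LIF. Every group received 2 µg/ml doxycycline, so no library shows the cells before JUN. The groups differed in what was added with it for 6 h by the labels: DMSO (the solvent), PFI-3 (which binds the bromodomains of SMARCA2, SMARCA4 and PBRM1), BI-9564 (which binds those of BRD9 and BRD7) or both compounds (P+B). The study's own text gives a longer induction of JUN than the treatment with the compounds, and the sources used here do not settle how long JUN had been induced. The labels give no dose of either compound, and the dose of each within P+B is not settled by the sources used here. Each group had 2 libraries, 8 in all. Nothing says that they came from separate cultures, so p-values measure the spread between these libraries, which may be technical.

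The heat shock response is the cell's answer to unfolded protein. The factor HSF1, held inactive by chaperones, is set free when they are occupied, forms trimers and binds heat shock elements, repeats of the unit GAA and its complement TTC in alternating orientation. It then raises chaperones that hold, refold or hand on proteins, and embryonic stem cells keep several of these genes highly expressed without any stress.

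The values are TPM, which are corrected for transcript length and so can be compared between genes, made whole numbers by the authors. The 8 libraries summed to 991574 to 991897. TPM keeps no number of reads, so depth and counting error are unknown. Of 10 pluripotent stem cell markers, 10 had a mean of at least 5, and their summed value was 3566 to 5484. Of 10 fibroblast markers 1 reached that mean, *Col1a2*, *Dcn*, *Lum*, *Pdgfra* and *Postn* were at 0 in every library, and the sum was 26 to 33. *Jun* was at 1569 to 3011 and was higher in replicate 2 than in replicate 1 of every group. It was also lower in each PFI-3 and P+B library than in the same-numbered DMSO and BI-9564 libraries. The mean of *Jun* was 2423.5 in DMSO, 1898.5 in PFI-3, 2541 in BI-9564 and 1864 in P+B, so the level of *Jun* was not equal between P+B and DMSO. These are bulk libraries, in which fewer cells of a type and less RNA per cell cannot be told apart.

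The sequence upstream of the members was searched for the element that HSF1 binds. The 250 bases before the gene start were searched on both strands for GAANNTTC or TTCNNGAA, a pair of heat shock units. RefSeq windows (GRCm38.p6) were matched for 7 of the 10 genes, and *Hspa8*, *Hsp90aa1* and *Hsp90ab1* had none. A gene can have several windows, and the pair was found in 7 of the 12 windows of these genes, against 12.8% of 32851 windows over all genes. The windows are not independent, since the 2 of *Hsph1* overlap and hold the same match, and those of *Hspa1a* and *Hspa1b* are nearly identical. The members were picked as HSF1-driven chaperones, so the larger share is no independent support for HSF1. All of the 7 genes but *Dnajb1* had it in at least 1 window. The stretches of *Hspb1*, *Hspa1b* and *Hspa1a* lie wholly upstream of the gene. Those of *Hspd1* and *Dnaja1* lie within annotated exons of longer transcripts, and that of *Hsph1* has 26 of its 30 bases in an exon. Each is written 5′ to 3′ on the gene's own strand with the matching units in capitals, to show that the arrangement differs between members.
*Hspd1*, chr1:55088053-55088082, minus strand: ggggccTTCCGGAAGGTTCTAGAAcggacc
*Hspb1*, chr5:135887801-135887830, plus strand: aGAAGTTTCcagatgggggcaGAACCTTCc
*Hsph1*, chr5:149636351-149636380, minus strand: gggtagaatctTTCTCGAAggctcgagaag
*Dnaja1*, chr4:40722333-40722362, plus strand: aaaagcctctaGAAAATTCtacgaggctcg
*Hspa1b*, chr17:34959324-34959353, minus strand: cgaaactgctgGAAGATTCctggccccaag
*Hspa1a*, chr17:34972242-34972271, minus strand: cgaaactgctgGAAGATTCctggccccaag
*Hspd1* had 3 overlapping matches, beginning 144, 139 and 134 bases before the start, which join into a run of 4 alternating units. It was the 1 member with a run of at least 3 units, held in 1 of the 12 windows and in 0.466% of all windows. *Hspb1* had 2 separate pairs, 117 and 97 bases before the start. The *Hspa1a* and *Hspa1b* windows differed at 3 of 250 bases, and the pair lay 104 bases before the start in both.

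The whole windows of the gene that differed most between treatments, *Hspa1b*, and of the gene with the separate pairs, *Hspb1*, are given with their genomic positions so that the pairs can be seen in place.
*Hspa1b*, chr17:34959239-34959488, minus strand: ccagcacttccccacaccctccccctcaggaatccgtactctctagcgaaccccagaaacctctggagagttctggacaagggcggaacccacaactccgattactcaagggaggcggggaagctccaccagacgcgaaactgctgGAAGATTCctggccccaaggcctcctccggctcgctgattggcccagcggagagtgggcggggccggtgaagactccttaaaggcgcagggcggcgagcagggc
*Hspb1*, chr5:135887669-135887918, plus strand: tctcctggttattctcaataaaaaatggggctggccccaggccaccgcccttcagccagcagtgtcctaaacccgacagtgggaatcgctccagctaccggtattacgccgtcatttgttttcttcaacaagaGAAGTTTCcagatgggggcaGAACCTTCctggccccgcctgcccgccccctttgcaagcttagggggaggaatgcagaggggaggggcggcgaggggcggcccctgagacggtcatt
The AP-1 site (TGACTCA or TGAGTCA) was in 0 of the 12 windows and in 4.46% of all windows. A CCAAT box (CCAAT or ATTGG) was in 7 of the 12 windows, some of which overlap, against 33.8% of all windows. These 7 belonged to *Hspa1a*, *Hspa1b*, *Hsph1*, *Dnaja1* and *Dnajb1*. These matches are letters in a window and no measure of binding.

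The members spanned more than 3 orders of size. *Hsp90ab1* ranked 13 by mean value among all rows, *Hspa8* 25 and *Hsp90aa1* 38, and the 3 together made up 81.7% to 84.1% of the summed value of the 10 genes. The inducible Hsp70 genes were at the other end, with *Hspa1b* at rank 8029 and *Hspa1a* at rank 10270. The 10 genes summed to 15359 and 14764 in DMSO, 14292 and 14549 in PFI-3, 14216 and 14168 in BI-9564 and 13771 and 13390 in P+B, or 1.35% to 1.55% of a library. The P+B libraries were the lowest and the DMSO libraries the highest, with no overlap.

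**Figure D1:**
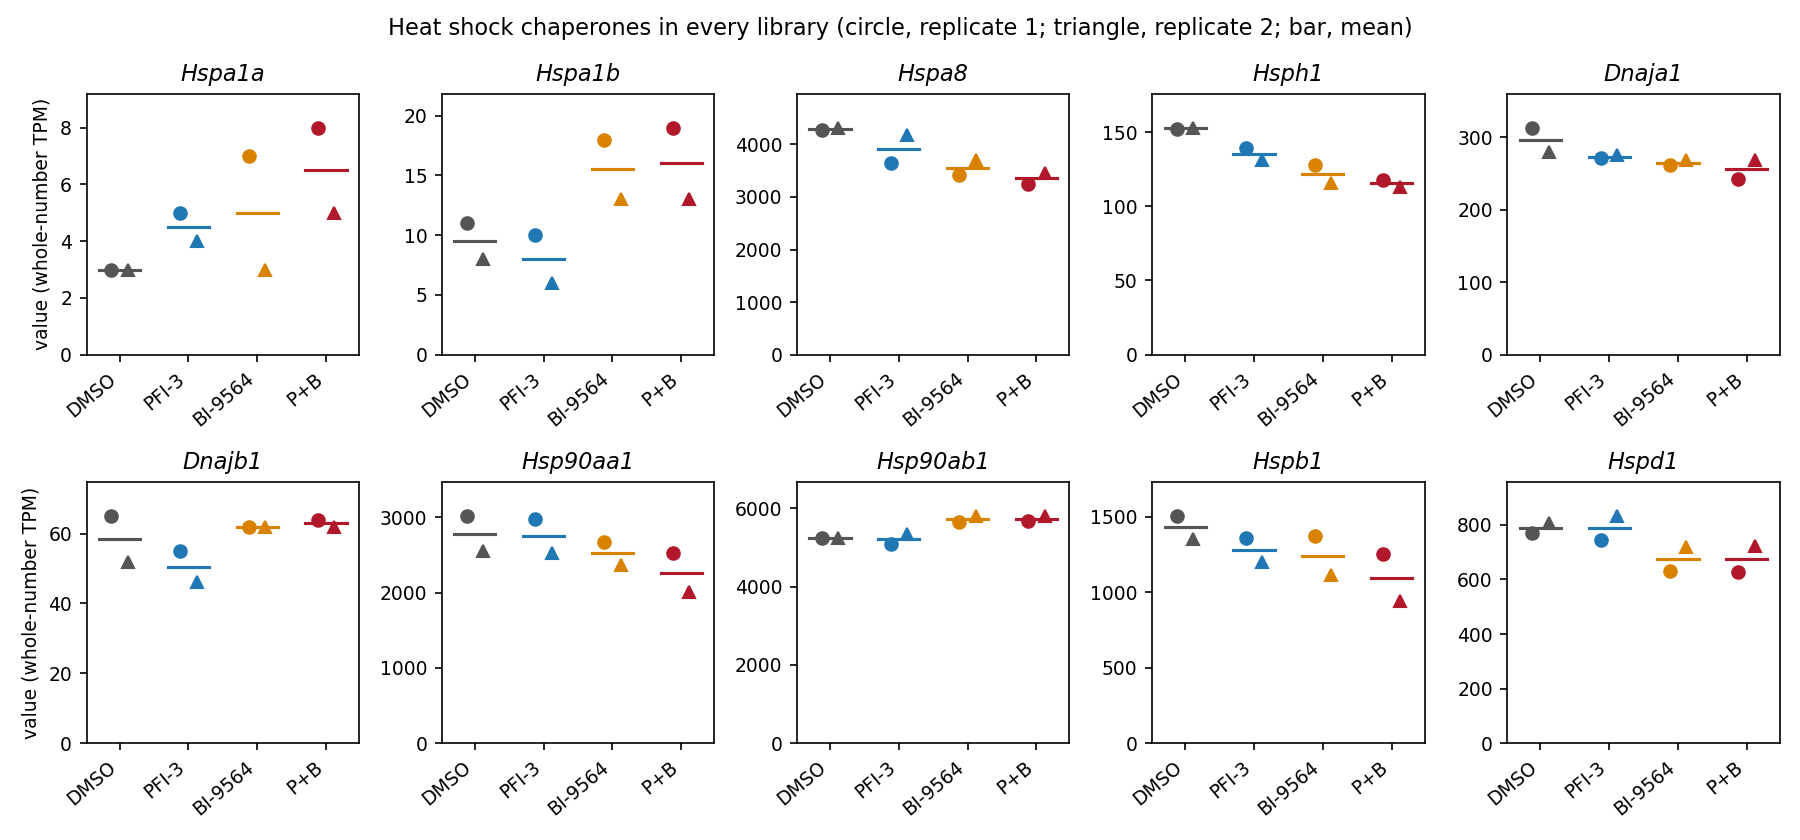
Value (TPM made whole numbers, linear axis from 0) of each of the 10 genes in the 8 libraries by treatment, with circles for replicate 1, triangles for replicate 2 and bars for the mean of 2. *Hspa1b* and *Hsp90ab1* sit higher in the BI-9564 and P+B libraries than in the DMSO and PFI-3 libraries, and *Hsph1*, *Dnaja1* and *Hspd1* sit lower.

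The main comparison asked how P+B differed from DMSO. Values were compared as log2(value + 1), a scale on which the change of low genes is understated, with limma fitted to all 8 libraries over the 10222 rows with a mean of at least 5. All members but *Hspa1a* (mean 4.75) passed that filter. A gene was called at an adjusted p under 0.05 (limma, Benjamini-Hochberg) and a fold of at least 1.5, which is 0.58 on the log2 scale. No member was called with P+B, 0 of 9 in either direction, where 2.72% of all tested rows were called lower and 1.28% higher. At an unadjusted p under 0.05, 5 of 9 members passed, beside 22.6% of all rows. By the adjusted p alone, 2 members fell, *Hspa8* and *Hsph1*, and 0 rose, beside 3.35% of all rows lower and 1.55% higher. The median difference over the 9 members was -0.23, and over all tested rows it was 0.06. A single gene cannot be tested exactly at this size, since 2 libraries against 2 cannot give a permutation p below 0.333.

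*Hspa8* encodes the constitutive cytosolic Hsp70, which folds new proteins and strips clathrin from vesicles. It lies on chr9:40800984-40810087 (GRCm38, plus strand), with 3 small nucleolar RNA genes inside it. Its value was 4279 and 4319 in DMSO, 3640 and 4169 in PFI-3, 3409 and 3702 in BI-9564 and 3249 and 3457 in P+B. Both P+B libraries and 1 of the 2 BI-9564 libraries were below every library without BI-9564. The mean was 4299 ± 28.3 (SD, n = 2) in DMSO and 3353 ± 147 in P+B, a log2 difference of -0.36 (SE 0.0773, limma adjusted p = 0.041). With the replicate number as a block, the adjusted p was 0.00342. The block was used because same-numbered libraries deviated together, and its results appear where they alter an outcome. In the blocked fit *Hspa8* also fell with BI-9564 alone (-0.28, limma adjusted p = 0.0322), beside 2.78% of all rows past the adjusted p. Without the block the limma adjusted p for BI-9564 alone was 0.181. Leaving out 1 library at a time in the blocked fit, the difference of *Hspa8* with BI-9564 alone was -0.34 to -0.21.

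The call for *Hspa8* needs its sequence relatives beside it, because 68.6% of the 75-base stretches of its longest transcript also occur in transcripts of 11 other genes. Of these, 10 have a row in the table, 8 of them are at 0 throughout, and *Gm15459* and *Gm26825* are expressed. *Gm15459* is a processed pseudogene on chr5:5781615-5783555 (minus strand), and *Gm26825* is a long noncoding RNA gene on the opposite strand at chr5:5781530-5783636. *Gm15459* was at 1733 and 1645 in DMSO and at 1261 and 1273 in P+B. *Gm26825* was at 903 and 917 in DMSO and at 730 and 791 in P+B. Both were thus lower in the P+B libraries, like *Hspa8*, and how reads were shared among the 3 rows was not tested. The *Hspa8* share of their sum was 60.4% to 63.9%. Summed with the related rows, *Hspa8* differed by -0.36 with P+B (SE 0.0616, limma adjusted p = 0.0183), an alternative chosen after seeing the data.

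**Figure D2:**
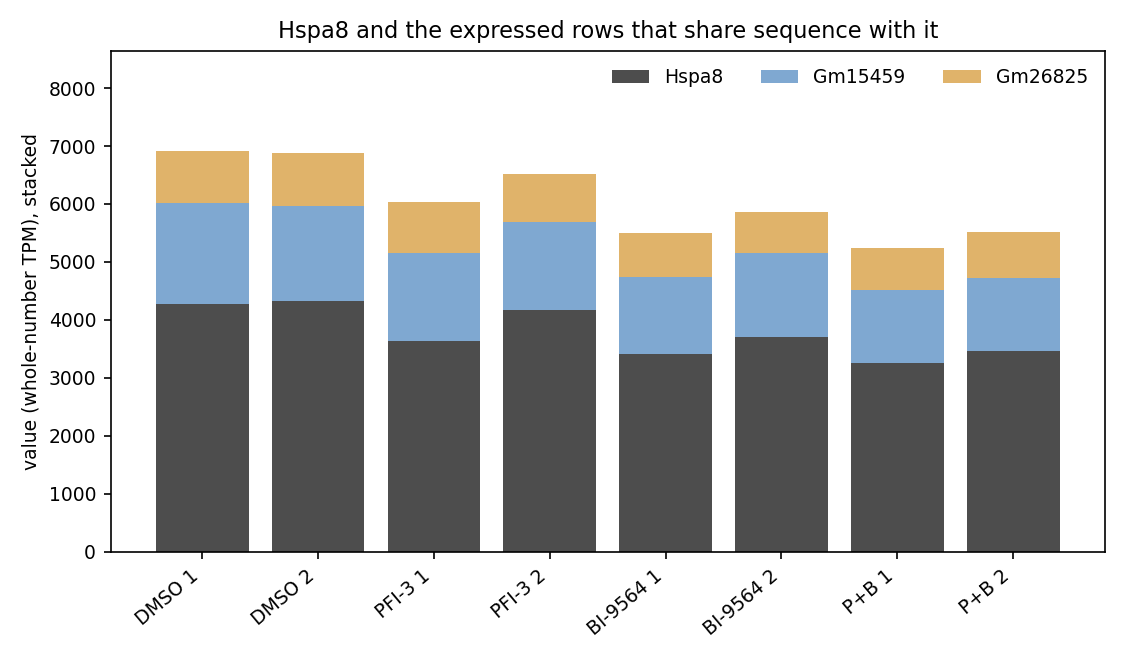
Stacked values (TPM made whole numbers, axis from 0) of *Hspa8*, the pseudogene *Gm15459* and the noncoding gene *Gm26825*, which share sequence, in each of the 8 libraries. The summed height is 6915 and 6881 in the DMSO libraries and 5240 and 5521 in the P+B libraries, and the split among the rows is similar in all 8.

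*Hsph1* encodes Hsp110, a large relative of Hsp70 that exchanges its nucleotide and works with it in pulling aggregates apart. It lies on chr5:149614287-149636376 (minus strand) and shares no 75-base stretch with another gene. Its value was 152 and 153 in DMSO, 139 and 131 in PFI-3, 128 and 116 in BI-9564 and 118 and 113 in P+B. Every library with BI-9564 was below every library without it. The log2 difference between P+B and DMSO was -0.40 (SE 0.0899, limma adjusted p = 0.0456). For both genes the step past the threshold was narrow. Leaving out 1 library at a time in the fit without the block, *Hspa8* stayed past it only without PFI-3 replicate 1 or 2 and *Hsph1* in no case. The difference of *Hsph1* was then -0.43 to -0.37. In the fit with the block it was -0.45 to -0.35, and that of *Hspa8* was -0.42 to -0.30.

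The inducible Hsp70 genes *Hspa1a* and *Hspa1b*, which are nearly silent in unstressed cells and are the classic readout of HSF1, were higher in both P+B libraries than in either DMSO library. They lie side by side on chromosome 17 (34969190-34972156 and 34956436-34959238, both minus strand), and 55.8% of the 75-base stretches of *Hspa1b* also occur in *Hspa1a*, so the split between the rows is uncertain. *Hspa1b* was at 11 and 8 in DMSO, 10 and 6 in PFI-3, 18 and 13 in BI-9564 and 19 and 13 in P+B. All 4 libraries with BI-9564 were above all 4 without it. *Hspa1a* was at 3 and 3, 5 and 4, 7 and 3, and 8 and 5 in the same order, with overlap between the groups. Their sum was 14 and 11 in DMSO, 15 and 10 in PFI-3, 25 and 16 in BI-9564 and 27 and 18 in P+B. The mean of that sum was 12.5 in DMSO and 22.5 in P+B.

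At these low levels the P+B difference of *Hspa1b* alone did not pass the test, and *Hspa1a* alone was below the filter and so was not tested in these fits. *Hspa1b* differed by 0.69 (SE 0.31, 95% interval -0.02 to 1.40, limma adjusted p = 0.237) and, with the replicate block, by the same amount at an adjusted p of 0.0509. The summed row of *Hspa1a* and *Hspa1b* differed by 0.78 and passed with the block only (limma adjusted p = 0.172 without it and 0.0215 with it). Against PFI-3, *Hspa1b* was higher with P+B by 0.93 (limma adjusted p = 0.191), and with the block it was called (adjusted p = 0.0312, beside 3.42% of all rows). That call was lost when any 1 of the 8 libraries was left out. Per 1000 of *Hspa8*, the inducible genes stood at 3.27 and 2.55 in DMSO and at 8.31 and 5.21 in P+B.

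*Dnaja1* and *Dnajb1* encode Hsp40 proteins, which bring clients to Hsp70 and start its ATPase, and *Dnajb1* is the more heat-inducible of them. *Dnaja1* (chr4:40722150-40737149, plus strand) was at 313 and 280 in DMSO, 271 and 275 in PFI-3, 261 and 268 in BI-9564 and 242 and 269 in P+B, so the libraries with BI-9564 were below the others by as little as 2 units. *Dnajb1* (chr8:83608193-83612653, plus strand) was at 65 and 52 in DMSO, 55 and 46 in PFI-3, 62 and 62 in BI-9564 and 64 and 62 in P+B. Its DMSO libraries enclosed all others but the lowest PFI-3 library. Neither passed with P+B, *Dnaja1* with a difference of -0.21 (95% interval -0.41 to -0.01, limma adjusted p = 0.199) and *Dnajb1* with 0.11 (-0.21 to 0.43, adjusted p = 0.678). *Dnaja1* overlaps the end of *Smu1* on the other strand and shares 26.2% of its stretches with other genes, and whether reads were counted by strand is not given in the sources used here.

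The Hsp90 genes had differences of opposite sign. Hsp90 finishes the folding of kinases and receptors, with *Hsp90aa1* (chr12:110690605-110702728, minus strand) as the stress-inducible and *Hsp90ab1* (chr17:45567775-45573271, minus strand) as the constitutive form. *Hsp90aa1* was at 3017 and 2552 in DMSO, 2982 and 2530 in PFI-3, 2676 and 2371 in BI-9564 and 2522 and 2011 in P+B. *Hsp90ab1* was at 5245 and 5233 in DMSO, 5088 and 5354 in PFI-3, 5652 and 5803 in BI-9564 and 5671 and 5793 in P+B. The *Hsp90aa1* libraries overlapped between treatments and differed by replicate. Those of *Hsp90ab1*, in the deposited values, did not overlap between libraries with and without BI-9564. As a share of both, *Hsp90aa1* was 36.5% and 32.8% in DMSO and 30.8% and 25.8% in P+B.

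With P+B, *Hsp90aa1* differed by -0.30 (SE 0.133, limma adjusted p = 0.227) and *Hsp90ab1* by 0.13 (SE 0.0513, adjusted p = 0.185). With the replicate block *Hsp90aa1* fell (adjusted p = 0.00568) and *Hsp90ab1* rose (adjusted p = 0.0404). The rise of *Hsp90ab1* depended on the scaling between libraries, since it was 0.02 after quantile normalization and 0.04 after centring each library on its median, with adjusted p of 0.797 and 0.489 in the blocked fits. *Hsp90aa1* shares 53.1% of its stretches with other genes, whose rows are at or near 0, and *Hsp90ab1* 0.736%.

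*Hspb1* encodes the small heat shock protein Hsp25, which holds unfolded proteins without ATP and binds actin. At chr5:135887919-135889563 (plus strand), it was at 1505 and 1356 in DMSO, 1357 and 1202 in PFI-3, 1373 and 1112 in BI-9564 and 1251 and 943 in P+B. Replicate 2 was the lower of each pair, and P+B replicate 2 was the lowest of the 8 libraries. *Hspd1* encodes the mitochondrial chaperonin Hsp60 and lies on chr1:55077835-55088243 (minus strand), head to head with *Hspe1*, the gene of its partner Hsp10. It was at 769 and 808 in DMSO, 745 and 832 in PFI-3, 630 and 718 in BI-9564 and 627 and 724 in P+B. Every library with BI-9564 was below every library without it. With P+B, *Hspb1* differed by -0.40 (SE 0.148, limma adjusted p = 0.164) and *Hspd1* by -0.23 (SE 0.0996, adjusted p = 0.226). With the block only, both fell by the adjusted p alone (limma adjusted p = 0.0101 and 0.028). Leaving out 1 library at a time in the blocked fit, the difference was -0.49 to -0.30 for *Hspb1* and -0.28 to -0.17 for *Hspd1*.

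In the blocked fit as a whole, 5 members (*Hspa8*, *Hsph1*, *Hsp90aa1*, *Hspb1* and *Hspd1*) fell with P+B and 1 (*Hsp90ab1*) rose by the adjusted p alone, beside 6.73% of all rows lower and 4.91% higher. None of them reached the fold of 1.5, and 7.02% of all rows were called in that fit.

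**Figure D3:**
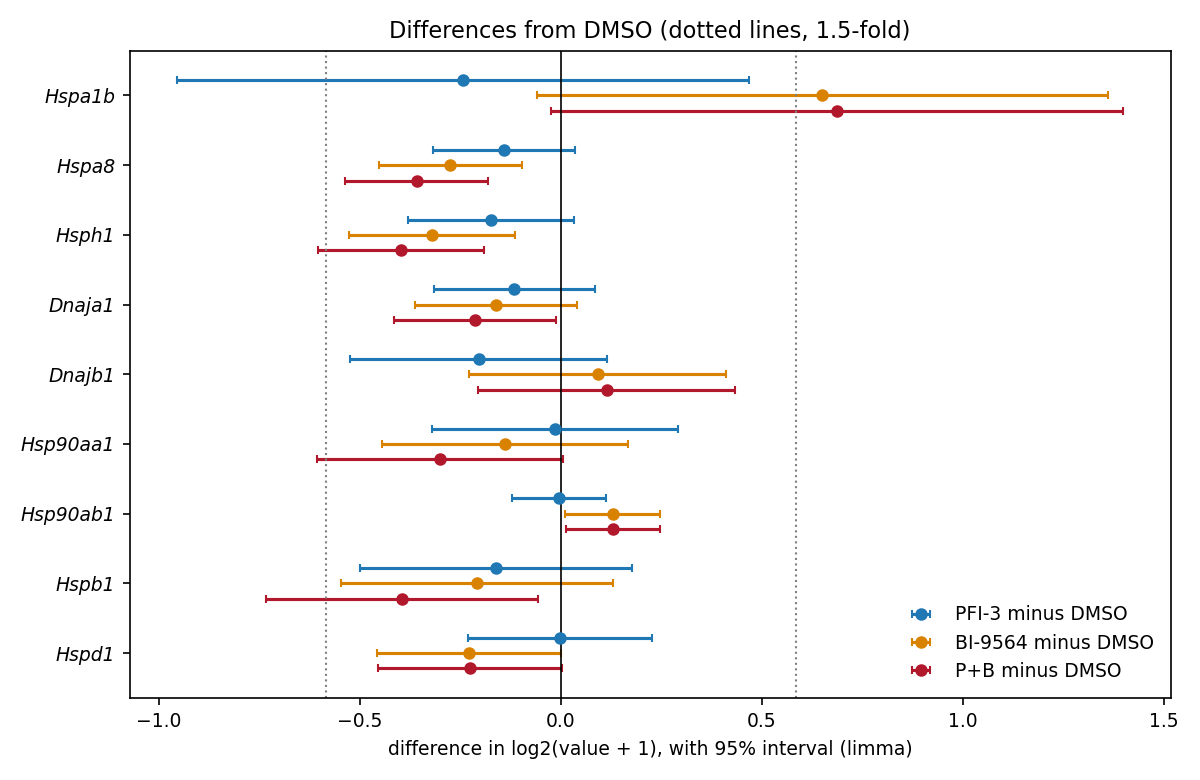
Difference from DMSO in log2(value + 1) for PFI-3, BI-9564 and P+B in the 9 tested members, with 95% intervals from limma without the replicate block, and dotted lines at 1.5-fold. The 3 comparisons share the DMSO libraries. The intervals of *Hspa1b* are the widest, and for P+B those of *Hspa8*, *Hsph1*, *Hspb1* and *Dnaja1* lie wholly below 0 and that of *Hsp90ab1* wholly above it.

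The single compounds were each compared with DMSO. With PFI-3, no member passed in limma (0 of 9, beside 0.00% of all rows called), and 0 members and 6.79% of all rows had an unadjusted p under 0.05. The member differences lay between -0.24 (*Hspa1b*) and -0.00 (*Hspd1*). With BI-9564, no member passed without the block (0 of 9, beside 0.108% of all rows called), 4 members and 14.9% of all rows had an unadjusted p under 0.05, and differences ran from -0.32 (*Hsph1*) to 0.65 (*Hspa1b*). *Hspa8* differed by -0.14 with PFI-3 (95% interval -0.32 to 0.04), by -0.28 with BI-9564 and by -0.36 with P+B. *Hsph1* differed by -0.18, -0.32 and -0.40 in that order.

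Compared directly, no member was called between BI-9564 and PFI-3 (0 of 9, beside 0.108% of all rows called), with 2 members and 14.2% of all rows at an unadjusted p under 0.05. *Hspa1b* had the largest value, 0.89 higher with BI-9564 (95% interval 0.18 to 1.61, limma adjusted p = 0.274, and 0.0517 with the block). *Hspa8* was lower with BI-9564 than with PFI-3 by 0.13 on the log2 scale, a difference of -0.13 with an interval of -0.31 to 0.04. Between P+B and PFI-3 no member was called without the block (0 of 9, beside 1.31% of all rows), with 4 members and 16.6% of all rows at an unadjusted p under 0.05. With the block *Hspa8* (-0.22), *Hsp90aa1* (-0.29) and *Hspd1* (-0.22) were lower and *Hspa1b* higher, with limma adjusted p of 0.038, 0.0129, 0.0455 and 0.0312, beside 5.62% of all rows.

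Between P+B and BI-9564 no member passed (0 of 9, beside 0.196% of all rows, with 0 members and 7.97% of rows at an unadjusted p under 0.05), and differences ran from -0.19 (*Hspb1*) to 0.04 (*Hspa1b*). The intervals were wide for the low genes, -0.67 to 0.75 for *Hspa1b*, and narrow for the high ones, -0.12 to 0.12 for *Hsp90ab1*. No member was called for a departure of P+B from the sum of the single compounds either (0 of 9, beside 0.00% of all rows, with 3.26% of rows and 0 members at an unadjusted p under 0.05). For *Hspa8* that departure was 0.06 (95% interval -0.19 to 0.31).

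The order of the group means differed between members. For *Hspa8*, *Hsph1*, *Dnaja1*, *Hsp90aa1* and *Hspb1* it ran from DMSO through PFI-3 and BI-9564 to P+B, the lowest. *Hspa1b*, *Dnajb1* and *Hsp90ab1* had P+B highest, then BI-9564, DMSO and PFI-3. For *Hspa1a* P+B was highest and DMSO lowest, and for *Hspd1* DMSO and PFI-3 both averaged 788.5, above P+B and BI-9564. Neighbours in these orders overlapped or lay within the spread of their 2 libraries for most members.

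The 4 groups can also be split by each compound, and for BI-9564 this sets 4 libraries with it (alone or in P+B) against 4 without. Like the members, these splits were chosen with earlier results of these data known, so their p-values are no independent support. By the limma fit, *Hspa8* (-0.25, SE 0.0547, adjusted p = 0.0369) and *Hsph1* (-0.27, SE 0.0636, adjusted p = 0.0425) fell, beside 4.16% of all rows lower, and 0 rose, beside 2.58% higher. No member was called with the fold (0 of 9, beside 3.19% of all rows), and 5 had an unadjusted p under 0.05, beside 24.7% of all rows. With the replicate block, *Hspa8*, *Hsph1*, *Hsp90aa1*, *Hspb1* and *Hspd1* fell and *Hsp90ab1* and *Hspa1b* rose by the adjusted p alone, 7 of 9 members beside 8.25% of all rows lower and 6.51% higher. Of these only *Hspa1b* was called with the fold, with a difference of 0.79 and a limma adjusted p of 0.00854 (0.0686 without the block), beside 4.95% of all rows. That adjusted p was 0.0376 to 0.0535 when 1 library was left out, and the call was lost only without PFI-3 replicate 2.

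The same split gave values that did not overlap for 5 of the 10 members, beside 13.8% of all tested rows. *Hspa1b* was at 13 to 19 with BI-9564 and at 6 to 11 without. *Hsp90ab1* was at 5652 to 5803 with it and at 5088 to 5354 without, in the deposited values. Its log2 difference in this split was 0.13, and it was 0.05 to 0.15 over 28 alternatives, which include other scalings. *Hsph1* was at 113 to 128 against 131 to 153, *Dnaja1* at 242 to 269 against 271 to 313 and *Hspd1* at 627 to 724 against 745 to 832. For each of these the exact two-sided permutation p was 0.0286, which is the smallest that 4 against 4 allows. Values that do not overlap always give that p, so it only restates the lack of overlap. It is among 20 such tests (10 members and 2 compounds) and is not adjusted for their number. The test takes no account of PFI-3 or of the replicate number. *Hspa8*, at 3249 to 3702 against 3640 to 4319, overlapped by 1 library (exact permutation p = 0.0571). Within the 4 pairs of same-numbered libraries that differ by BI-9564, 6 members were lower in every pair (beside 15.8% of all rows) and 2 higher in every pair (beside 18.5%). The 6 were *Hspa8*, *Hsph1*, *Dnaja1*, *Hsp90aa1*, *Hspb1* and *Hspd1*.

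Split by PFI-3 in the same way, no member passed (0 of 9, beside 0.323% of all rows called, with 0 members and 10.8% of rows at an unadjusted p under 0.05) and 0 of 10 had values that did not overlap (beside 3.20% of all rows). *Hspa8*, *Hsph1*, *Hsp90aa1* and *Hspb1* were lower with PFI-3 in all 4 same-numbered pairs, beside 8.98% of all rows. The differences for these genes were -0.11, -0.13, -0.09 and -0.17, with limma adjusted p from 0.508 to 0.816. *Hsp90ab1* and *Hspd1* differed by -0.00 and 0.00, with 95% intervals of -0.09 to 0.08 and -0.16 to 0.16.

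Several members also differed by replicate number. *Hsp90aa1* was lower in replicate 2 in all 4 groups, with a difference of -0.24 (SE 0.0302, limma adjusted p = 0.00734), and so was *Hspb1* (-0.26, SE 0.046, adjusted p = 0.0262), beside 2.19% of all rows lower in replicate 2 by that p. *Hspa1b* was also lower in all 4 groups (-0.51, adjusted p = 0.0795), while *Hspa8* (0.10, adjusted p = 0.125) and *Hspd1* (0.16, adjusted p = 0.0577) were higher in all 4. Of all rows, 12.8% were lower and 11.1% higher in replicate 2 of all 4 groups. *Hsph1*, *Dnaja1*, *Dnajb1* and *Hsp90ab1* differed by -0.07, 0.01, -0.15 and 0.03 and did not pass. *Jun* also moved with the replicate number, being higher in replicate 2 of every group, and it was lower in the libraries with PFI-3 than in their same-numbered counterparts without it. The part of *Jun* in the differences by replicate or by compound was not tested. What the number marks (a culture, a day or a library batch) is not given in the sources used here.

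**Figure D4:**
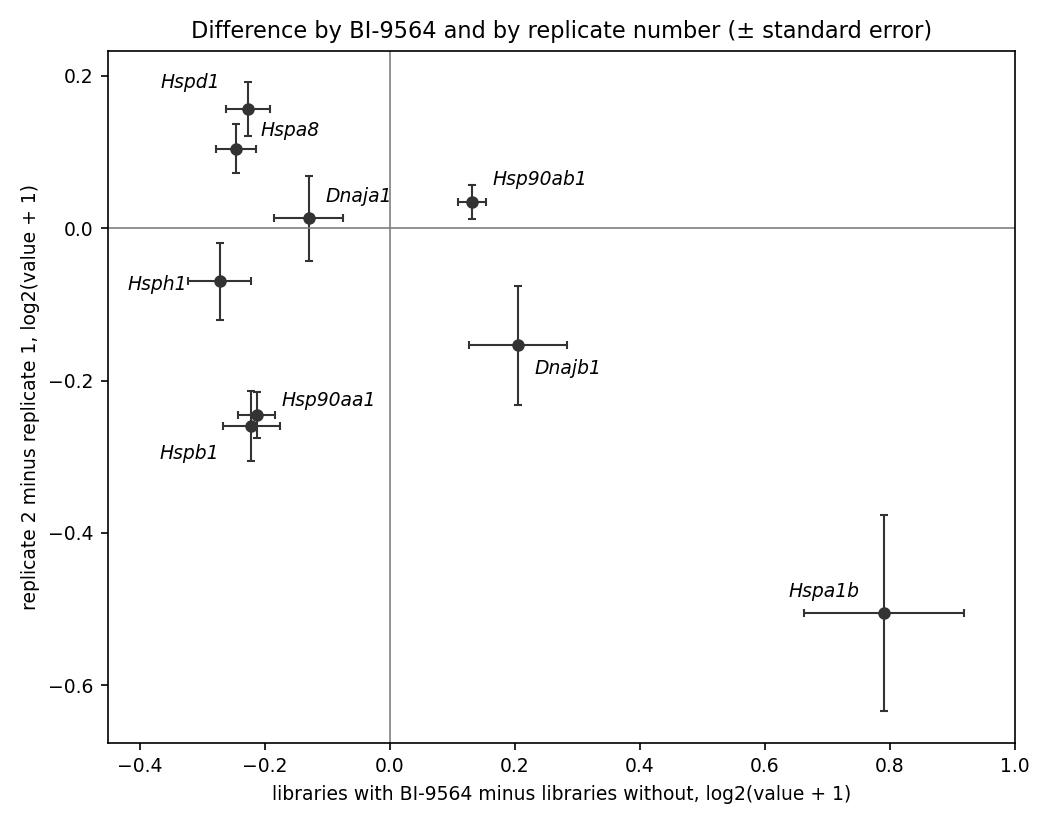
Difference between libraries with and without BI-9564 (horizontal axis) against the difference between replicate 2 and replicate 1 (vertical axis), both in log2(value + 1) from the limma fit with the replicate block, with bars of 1 standard error, for the 9 tested members. *Hspa1b* stands alone at 0.79 and -0.51, *Hsp90aa1* and *Hspb1* are low on both axes, and *Hspa8* and *Hspd1* are low with BI-9564 and high in replicate 2.

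The members did not follow a single profile over the 8 libraries. These correlations describe libraries that share treatment and replicate number, and carry no test. *Hsp90aa1* and *Hspb1* were the most alike (Pearson r = 0.936 on the log2 scale), followed by *Hspa8* and *Hspd1* (0.884) and *Hspa1b* and *Dnajb1* (0.861). *Hspa1b* and *Hspd1* ran opposite to each other (-0.966), as did *Hsph1* and *Hsp90ab1* (-0.882), while *Hspb1* and *Hspd1* were nearly unrelated (0.045). Over the 10222 tested rows, the gene most like *Hspa1b* was *Ninj1* (r = 0.979), and the gene most like *Hspb1* was *Anxa2* (0.989). For *Hspa8* it was *Wdtc1* (0.985), for *Hsph1* *Brsk1* (0.985) and for *Dnaja1* *Ubald1* (0.972). *Dnajb1* was nearest to *Dynll1* (0.953), *Hsp90aa1* to *Lypla1* (0.98), *Hsp90ab1* to *Fam222a* (0.99) and *Hspd1* to *Nedd4* (0.993). With 8 libraries and so many rows, values of this size arise for many genes.

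The rest of the chaperone system was examined with lists chosen by function. Of 8 heat shock factors and their binding proteins, 4 were tested and 0 passed with P+B. *Hsf1*, the factor itself, named after its values were seen, was at 42 and 36 in DMSO and at 43 and 53 in P+B. *Hsbp1*, which binds the HSF1 trimer, was at 157 and 116 in DMSO and at 181 and 170 in P+B (limma adjusted p = 0.155). *Hsf2bp*, a binding partner of HSF2, was at 53 and 73 in DMSO and at 39 and 56 in P+B (adjusted p = 0.292). The P+B libraries were thus higher for *Hsbp1* and overlapped DMSO for *Hsf2bp*.

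Of 70 other cytosolic chaperones and co-chaperones, 54 were tested, 1 was called lower with P+B, beside 2.72% of all rows, and 3 fell by the adjusted p alone, beside 3.35%, with a list median of 0.02. These were the small heat shock protein *Hspb8* (-0.96, limma adjusted p = 0.0431, the one called), *Ahsa1*, which stimulates the Hsp90 ATPase (-0.34, adjusted p = 0.0496), and *Sugt1*, an Hsp90 co-chaperone (-0.46, adjusted p = 0.0498), the last pair named after their values were seen. *Hspb8* was at 123 and 105 in DMSO, 94 and 75 in PFI-3, 104 and 92 in BI-9564 and 73 and 46 in P+B. With the replicate block 7 of the 54 fell by the adjusted p alone, beside 6.73% of all rows, and 0 rose, beside 4.91%. *Stip1*, which links Hsp70 to Hsp90, was at 521 and 521 in DMSO and at 478 and 500 in P+B (adjusted p = 0.47). *Fkbp4*, an Hsp90-binding immunophilin, was at 488 and 530 in DMSO and at 408 and 452 in P+B (adjusted p = 0.172, and 0.0293 with the block).

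Chaperones of the organelles were examined in the same way. Of 13 tested mitochondrial chaperones 0 passed with P+B, with a median of -0.03, and with the block 2 fell by the adjusted p alone, beside 6.73% of all rows, *Hspa9*, the mitochondrial Hsp70 (401 and 434 in DMSO, 347 and 362 in P+B, limma adjusted p = 0.0479), and *Clpp*, a protease (adjusted p = 0.0455). *Hspe1*, the neighbour of *Hspd1*, was at 517 and 518 in DMSO, 472 and 516 in PFI-3, 457 and 451 in BI-9564 and 405 and 484 in P+B (adjusted p = 0.204). Of 21 tested subunits of the cytosolic chaperonin and prefoldin 0 passed, with or without the block, and the median was -0.09. Among them *Cct6a* was at 637 and 670 in DMSO and at 492 and 609 in P+B, and *Cct5* at 610 and 606 in DMSO and at 512 and 554 in P+B.

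The 20 chaperones of the endoplasmic reticulum (ER), which answer to a separate unfolded protein response, had a median of 0.08 with P+B and 0 passed without the block. With the block 2 of the 20 rose by the adjusted p alone, beside 4.91% of all rows. *Dnajc1*, a J-domain protein of the ER membrane that was named after its values were seen, was at 6 and 9 in DMSO and at 15 and 20 in P+B, and it was the 1 called with the fold (1.13, limma adjusted p = 0.0261 with the block). *Hspa5*, the ER Hsp70 (BiP), was at 378 and 385 in DMSO, 450 and 456 in PFI-3, 321 and 369 in BI-9564 and 456 and 474 in P+B, and it was the other (difference 0.28, limma adjusted p = 0.0262 with the block). Its libraries with PFI-3 were thus above all others. *Manf*, a secreted ER stress protein, was at 162 and 166 in DMSO, 219 and 222 in PFI-3, 115 and 124 in BI-9564 and 186 and 158 in P+B, and *Calr*, a lectin chaperone, was at 849 and 849, 981 and 957, 751 and 688, and 895 and 872 in that order. In the split by BI-9564, 3 of the 20 ER genes fell by the adjusted p alone, beside 4.16% of all rows, *Manf* (-0.41, adjusted p = 0.0168), *Pdia4* (-0.31, adjusted p = 0.0218) and *Hsp90b1* (-0.22, adjusted p = 0.046). *Pdia4* and *Hsp90b1* were named after their values were seen.

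Of 20 genes of other stress responses, 3 were called lower with P+B, beside 2.72% of all rows, and 1 higher, beside 1.28%. With the block 7 were called in all, beside 7.02% of all rows. *Atf3*, a stress-induced repressor of the ATF family, fell (29 and 32 in DMSO, 10 and 13 in P+B, -1.34, limma adjusted p = 0.0066), and so did *Gadd45a*, a growth arrest gene (87 and 112 against 46 and 47, -1.07, adjusted p = 0.0098), and *Trib3*, a target of ATF4 (44 and 39 against 21 and 18, -1.05, adjusted p = 0.0124). *Sesn2*, a stress-induced inhibitor of mTORC1 signalling, rose (62 and 43 against 98 and 93, 0.87, adjusted p = 0.0267). *Ddit4*, another, was at 27 and 12 in DMSO, 20 and 15 in PFI-3, 41 and 33 in BI-9564 and 41 and 40 in P+B (1.12, adjusted p = 0.0887, and 0.0245 with the block). Its libraries split by BI-9564 without overlap, as did those of *Hspa1b*. The genes that fell with P+B were not alike with the single compounds. *Atf3* was at 17 and 20 in PFI-3 and at 29 and 34 in BI-9564. *Gadd45a* was at 62 and 73 in PFI-3 and at 62 and 76 in BI-9564. *Trib3* was at 50 and 65 in PFI-3 and at 21 and 23 in BI-9564.

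**Figure D5:**
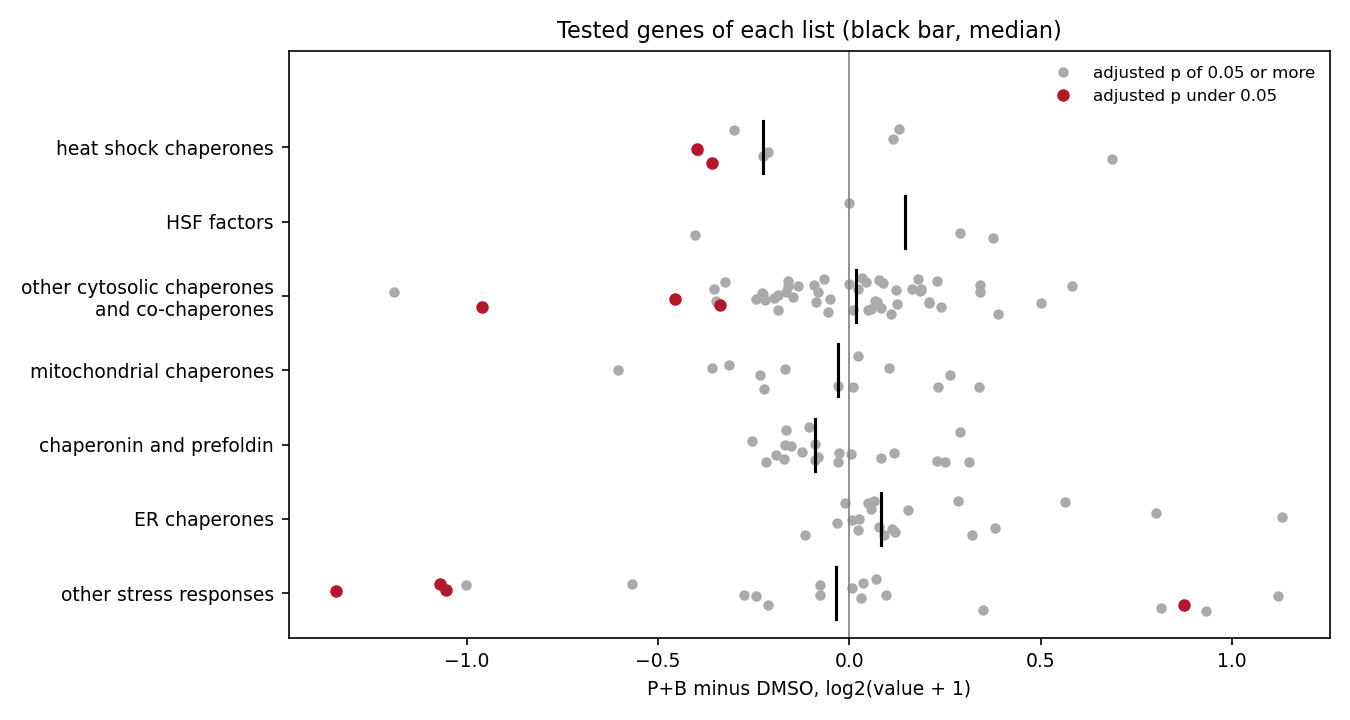
Difference between P+B and DMSO in log2(value + 1) for each tested gene of the heat shock chaperones and of 6 other lists, with red points for a limma adjusted p under 0.05, grey points for the rest and a black bar at each list's median. The medians lie between -0.23 for the heat shock chaperones and 0.14 for the HSF factors, and most red points are on the lower side.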

How the data were processed

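The authors deposited 1 table with a value for each of 50600 rows in 8 libraries. The deposited values are a score, whole-number TPM by the authors, as the libraries' sums show. The submitters' processing notes name bcl2fastq, Bowtie2 2.2.5, RSEM 1.3.0 and mm10, and the labels a poly(A) mRNA kit. No raw counts were used, so count tests were not run.

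Tests used limma 3.58.1 (R 4.3.3; lmFit, contrasts.fit and a trended eBayes) on log2(value + 1) of the 10222 rows with a mean of at least 5, with 4 groups in 1 fit and 4 residual degrees of freedom. P-values were adjusted by Benjamini-Hochberg over all tested rows within a comparison. Calls needed an adjusted p under 0.05 and a fold of at least 1.5. Exact permutation tests were run in scipy 1.17.1. In the leave-one-out fits a lone library is assumed to vary like the other groups. The scripts were tested on simulated data.

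Same replicate numbers occur in every group of the labels. The differences between replicates 2 and 1 correlated across rows in all 6 pairs of groups (Pearson r 0.143 to 0.236), above the limit of 0.1 set for every pair, so a second model with that number as a block (3 residual degrees of freedom) was run. The pairing comes from these correlations, not from a stated shared culture or day.

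The members and lists were chosen with earlier results of these data known. Of other lists, up to 4 genes were named, those with the largest P+B difference among the genes past the thresholds in any comparison, or else the 2 with the highest mean. Genes most alike were those with the highest Pearson r over the 8 libraries. Positions and shared 75-base stretches are from GENCODE M21 (GRCm38) and upstream windows from RefSeq (GRCm38.p6). Alternatives were the block, pseudocounts of 0.5 and 5, filters at a mean of 1 and 20 and none, quantile normalization, median centring, no trend, fits of the compared groups only, no fold threshold, summed *Hspa1a* and *Hspa1b*, summed *Hspa8* relatives and leaving out each library.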

Additional observations from a re-analysis of the deposited data

How the results depend on the processing

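The count of members called was 0 in every comparison and stayed 0 with other pseudocounts, filters, scalings, without the trend, in fits of the compared groups only and when each library was left out. With the replicate block it was 1 for P+B against PFI-3 and 1 for the split by BI-9564 (*Hspa1b* in both), and the block changed no other call of a single member with the fold threshold. The summed row of *Hspa1a* and *Hspa1b* met both thresholds for P+B against DMSO with the block only. Counts by the adjusted p alone depended on the block. P+B against DMSO gave 2 members without it and 6 with it, 5 with the block and quantile normalization and 6 with the block and median centring, and leaving out each library gave 0 to 1 without the block and 0 to 4 with it. BI-9564 against DMSO gave 0 without the block, 1 with it (*Hspa8*) and 3 with the block and median centring. P+B against PFI-3 gave 4 with the block, 4 with quantile normalization and 5 with median centring added, and 0 to 2 when a library was left out. The split by BI-9564 gave 2 without the block and 7 with it, 6 and 7 with quantile normalization and median centring added, and 0 to 1 or, with the block, 2 to 7 when a library was left out. The split by PFI-3 gave 1 with the block and median centring. With the block alone, the shares of all rows past the adjusted p were 6.73% lower and 4.91% higher for P+B against DMSO. They were 2.78% for BI-9564 against DMSO and 5.62% for P+B against PFI-3. For the split by BI-9564 they were 8.25% lower and 6.51% higher. The fits that combine the block with another choice were added after seeing the data. The share of all rows was not counted in them, so their counts of members have nothing to be set against.

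The adjusted p of *Hspa8* for P+B against DMSO ran from 0.00107 to 0.182 over 30 alternatives and that of *Hsph1* from 0.0049 to 0.189 over 29, all in the same direction. Without the block, *Hspa8* missed 0.05 at a filter of a mean of 1 (0.0624), with no filter (0.105), without the trend (0.147) and in the fit of the compared groups (0.124), and *Hsph1* also with quantile normalization (0.0777). Some differences near 0 turned sign. When each library was left out, the *Dnajb1* difference was -0.0446 to 0.272 for P+B against DMSO and -0.0671 to 0.249 for BI-9564 against DMSO (with the block also -0.0175 and -0.0113). For PFI-3 against DMSO it was -0.57 to 0.082 for *Hspa1b*, -0.135 to 0.106 for *Hsp90aa1* (also 0.104), -0.0422 to 0.0313 for *Hsp90ab1* (with the block also 0.0199 and 0.0204) and -0.0813 to 0.0778 for *Hspd1* (also 0.0339, and with the block 0.0551 and 9.18e-06). After quantile normalization *Hspd1* was 0.028 for PFI-3 with or without the block. The cause was not tested. TPM keeps no depth, so the counting error of *Hspa1a* and *Hspa1b*, which rest on low values, is unknown.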

Other observations

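The 5 genes outside the list whose profile over the 8 libraries was most like the mean profile of the tested members were *Stom* (Pearson r = 0.957), *Vwa5a* (0.945), *Csrp1* (0.945), *Sdc4* (0.932) and *Yif1a* (0.931), over 10222 tested rows. That mean is taken over members that ran opposite to each other, such as *Hspa1b* and *Hspd1* (r = -0.966). Likeness to it is therefore not likeness to each member. The ratio of *Hsp90ab1* to *Hspa8* was 1.23 and 1.21 in DMSO, 1.40 and 1.28 in PFI-3, 1.66 and 1.57 in BI-9564 and 1.75 and 1.68 in P+B. The ratio is taken within 1 library, so it does not change when all values of a library are scaled by the same factor. Quantile normalization is no such scaling and can change it. No value was set apart within a group, since groups of 2 libraries were not examined for outliers.

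Of the pluripotent stem cell markers, *Tdgf1* was called lower with P+B (-0.93, limma adjusted p = 0.00916) and in the split by BI-9564 (-1.09, adjusted p = 0.00221), and it was named after its values were seen. The markers did not move together with P+B, where 6 of the 10 had a difference below 0. With the block 2 fell and 2 rose with P+B by the adjusted p alone, beside 6.73% of all rows lower and 4.91% higher. In the split by BI-9564, 1 of the 10 markers fell by the adjusted p alone without the block, beside 4.16% of all rows. With the block 7 fell in that split, beside 8.25%, a comparison in which *Hspa8*, *Hsph1*, *Hsp90aa1*, *Hspb1* and *Hspd1* fell as well. Whether the chaperone differences go with those of the pluripotency markers was not tested.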
